A study of Mus musculus with 9 samples.

Results

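Aminoacyl-tRNA synthetases join each amino acid to its transfer RNA, and the 36 mouse genes described here encode the enzymes that do so in the cytosol (20 genes) and in mitochondria (16 genes). Members were chosen by gene symbol on the array design, from 35019 gene names in all. The rule uses no measured value, but the choice was made with earlier results of these data known. They had 46 probes, and 35 of the 36 genes passed the filter on dim probes and were tested among 19913 genes. The exception was mitochondrial Nars2, whose single probe failed that filter in all 3 groups. The 35 tested members were each detected well above background on all 9 arrays.

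RNA came from mouse embryonic stem (ES) cells in which loxP sites allow Cre recombinase to delete Xpc, a DNA damage sensor of nucleotide excision repair. The null group was a subclone of constitutive Xpc knockout cells. The induced group carried the floxed alleles (f/f) and was taken 4 days after deletion was started with an agent that the labels give only as Tx. The floxed group carried the same f/f alleles without that agent and without deletion. Each group had 3 one-colour Agilent arrays, a number that sets how precise the values can be. The null cells were subcloned, so features of that subclone and loss of Xpc cannot be told apart. Nothing says that the arrays of a group came from separate cultures, so p-values may measure technical spread alone.

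A synthetase is needed for protein synthesis in every cell, and the cytosolic enzymes are encoded apart from most of the mitochondrial ones. Gars and Kars are exceptions, since each of these genes supplies the glycyl or lysyl enzyme of both compartments. Many cytosolic synthetase genes are described as targets of Atf4, the transcription factor whose translation rises when phosphorylated eIF2 slows initiation. Atf4 and its C/EBP partners bind a composite element called the C/EBP-ATF response element.

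Values are log2 of the processed signal minus log2 of the array's 75th percentile, so 0 marks that percentile and a difference of 1 is a doubling on this scale. The arrays lay on 3 slides. Slide 1 held floxed arrays 1 and 2, slide 2 held null array 3 and floxed array 3, and slide 3 held null arrays 1 and 2 with all 3 induced arrays. No slide held induced and floxed arrays together. Detected spots made up 47.4% to 57.87% of an array, with 0 saturated. Floxed array 3 stood apart from the other floxed arrays, at 24.17 on the first principal component (47.32% of the variance), where the null arrays lay at 29.06, 36.17 and 32.17 and floxed arrays 1 and 2 at -32.62 and -33.86. The main comparisons were therefore also made without that array. Since it was picked from these same values, smaller p-values after its removal are no independent support for a difference. Floxed arrays 1 and 2 alone then stand for the floxed group. Leaving out any other single array called 0 members in each comparison. Xpc itself was at -0.85, -1.53 and -1.37 on the null arrays, at -1.11, -0.68 and -1.05 on the induced arrays and at 0.59, 0.55 and 0.16 on the floxed arrays, with the floxed arrays above all others. Xpc fell by 1.68 in null against floxed cells (limma adjusted p = 0.00584), and its difference in induced minus floxed was -1.38 (limma adjusted p = 0.224). Without floxed array 3 these differences were -1.82 and -1.51 (limma adjusted p = 0.000986 and 0.0319). The 8 ES cell markers were above background in all groups.

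The promoter sequences shown here are those of synthetase genes that hold the core of the C/EBP-ATF response element, because the synthetase genes with the largest differences between the groups are described as Atf4 targets. RefSeq promoters of build GRCm38.p6, covering 250 bases before to 50 bases after the start of each gene, were at hand for 13 cytosolic and 14 mitochondrial members. They were searched on both strands for TGATGNAA, which reads TTNCATCA on the other strand, and no other motif was searched. The core was found in 5 of the 13 cytosolic genes and in 0 of the 14 mitochondrial genes, against 1219 of all 27025 genes in the table (4.51%), or 1304 of 32851 promoters of the same length (3.97%). All 5 belonged to the 8 cytosolic genes with a promoter that are described as Atf4 targets, and the 5 other cytosolic genes with a promoter had none. The list of described targets and the motif were chosen with results of these data known, so these counts are no independent support. Capitals mark the core in each window, and positions count from the first base of the gene as 1, with the base before it as -1. The first window of Aars is chr8:111033700-111033767 on the plus strand, with the core starting at -112, and the second is chr8:111033840-111033869, with the core starting at 10. The Gars window is chr6:55037941-55038000 on the plus strand (core at -30), and the Iars window is chr13:49682126-49682155 on the plus strand (core at 8). The Tars window is chr15:11399659-11399703 on the minus strand (core at -15), and the Yars window is chr4:129189895-129189924 on the plus strand (core at 4).
Aars, first: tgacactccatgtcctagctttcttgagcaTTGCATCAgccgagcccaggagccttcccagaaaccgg
Aars, second: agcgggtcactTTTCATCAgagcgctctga
Gars: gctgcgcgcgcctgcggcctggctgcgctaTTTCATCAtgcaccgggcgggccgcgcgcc
Iars: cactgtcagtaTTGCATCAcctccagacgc
Tars: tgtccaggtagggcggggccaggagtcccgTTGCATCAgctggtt
Yars: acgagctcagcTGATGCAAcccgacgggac

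The minus-strand form TTGCATCA stood in Aars, Iars and Tars, the form TTTCATCA in Aars and Gars, and the plus-strand form TGATGCAA in Yars. A match describes letters and not a bound site. Mars and Sars, which are among the genes with the largest differences, held no match in this window, which says only that these letters are not there. Cars, Hars, Lars, Nars, Rars, Vars, Wars, Hars2 and Pars2 are members for which no promoter was searched.

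Null cells were set against induced cells to compare lasting with recent loss of Xpc. Cytosolic synthetases were lower in null cells for 13 of 20 genes, with a median log2 difference of -0.40, while the 15 mitochondrial genes had a median of -0.18 and all tested genes a median of 0.02. The 10 largest differences belonged to Cars, Nars, Sars, Yars, Iars, Aars, Mars, Lars, Tars and Gars, between -1.36 and -0.50. With all 9 arrays in the fit, 0 of 35 members passed an adjusted p of 0.05 by limma, where 2.2% of all genes did, and 12 cytosolic and 2 mitochondrial members had an unadjusted p under 0.05, as did 23.8% of all genes. The null arrays lay wholly below the induced arrays for 12 of 20 cytosolic and 7 of 15 mitochondrial genes (18.3% of all genes), and wholly above them for 1 cytosolic and 2 mitochondrial genes (19% of all genes).

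The floxed arrays enter this comparison only through the shared estimate of the spread, and the calls changed when floxed array 3 was left out. Without it the differences were the same by construction and 14 members passed in limma: Aars, Cars, Dars, Gars, Iars, Lars, Mars, Nars, Sars, Tars, Yars, Fars2 and Pars2 fell, and Farsa rose. In that fit 9.66% of all genes fell and 8.47% rose. With slide as a block, which compares null arrays 1 and 2 with the induced arrays on the same slide, 11 members fell (8.86% of all genes) and 0 rose (7.45% of all genes). These 11 were the cytosolic genes that fell without floxed array 3. A fit of null and induced arrays alone, added after the data were seen, called 10 members, all of them lower (7.63% of all genes, with 6.33% higher) and all among those 11.

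**Figure D1:**
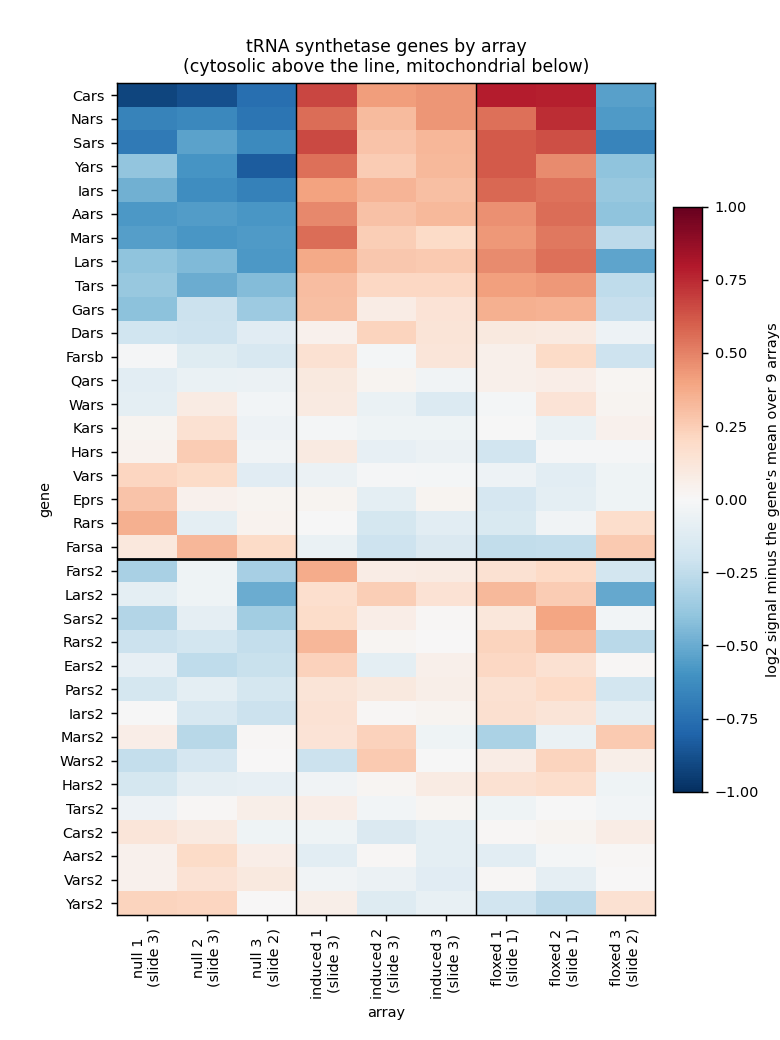
Heat map of 35 synthetase genes (rows) on 9 arrays (columns, with slide), coloured by log2 signal minus the mean of that gene over the 9 arrays; cytosolic genes stand above the black line and mitochondrial genes below it, each sorted by the null minus induced difference. The 10 uppermost cytosolic genes were below their mean on the 3 null arrays and on floxed array 3, and above it on the other arrays.

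Cars, the cysteinyl enzyme, had the largest difference of the family. Cars was at 4.21, 4.24 and 4.37 on the null arrays, at 5.80, 5.54 and 5.57 on the induced arrays and at 5.91, 5.90 and 4.58 on the floxed arrays. The null arrays were the 3 lowest, floxed array 3 came next, and the other 5 arrays lay close together above it. The log2 difference of null minus induced was -1.36 (SE 0.31, limma adjusted p = 0.0623), or 38.9% of the induced level, and that of null minus floxed was -1.19 (SE 0.31, limma adjusted p = 0.0867). Without floxed array 3, null minus floxed was -1.63 (SE 0.10, limma adjusted p = 0.00011) and null minus induced was still -1.36 (limma adjusted p = 0.00028).

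Nars, the asparaginyl enzyme, was at 2.26, 2.29 and 2.20 on the null arrays, at 3.49, 3.25 and 3.37 on the induced arrays and at 3.48, 3.66 and 2.36 on the floxed arrays. All null arrays were below every other array, and floxed array 3 was the nearest to them. Null minus induced was -1.12 (SE 0.29, limma adjusted p = 0.0822) and null minus floxed was -0.92 (SE 0.29, limma adjusted p = 0.121). Without floxed array 3, null minus floxed was -1.32 (limma adjusted p = 0.00022).

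Sars, the seryl enzyme, was at 4.93, 5.11 and 5.0 on the null arrays, at 6.30, 5.93 and 5.97 on the induced arrays and at 6.25, 6.28 and 4.98 on the floxed arrays. Here floxed array 3 lay among the null arrays, so null and floxed overlapped, while null and induced did not. Null minus induced was -1.05 (SE 0.31, limma adjusted p = 0.103) and null minus floxed was -0.83 (SE 0.31, limma adjusted p = 0.168). Without floxed array 3, null minus floxed was -1.26 (limma adjusted p = 0.000555).

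Yars, the tyrosyl enzyme, was at -1.74, -1.93 and -2.18 on the null arrays, at -0.79, -1.09 and -1.02 on the induced arrays and at -0.73, -0.87 and -1.74 on the floxed arrays. Floxed array 3 was level with null array 1 to the decimals shown. Null minus induced was -0.99 (SE 0.25, limma adjusted p = 0.0797) and null minus floxed was -0.84 (SE 0.25, limma adjusted p = 0.109). With that array left out, null minus floxed was -1.15 (limma adjusted p = 0.00158).

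Aars, the alanyl enzyme, was at 5.04, 5.06 and 5.04 on the null arrays, at 6.10, 5.91 and 5.94 on the induced arrays and at 6.07, 6.18 and 5.22 on the floxed arrays. The null arrays had an SD of 0.013 (n = 3), and floxed array 3 was nearer to them than to the other floxed arrays. Null minus induced was -0.94 (SE 0.22, limma adjusted p = 0.0678) and null minus floxed was -0.78 (SE 0.22, limma adjusted p = 0.102). With that array left out, null minus floxed was -1.08 (limma adjusted p = 0.000278).

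Iars, the isoleucyl enzyme, was at 4.33, 4.18 and 4.13 on the null arrays, at 5.20, 5.14 and 5.11 on the induced arrays and at 5.38, 5.35 and 4.43 on the floxed arrays. Mars, the methionyl enzyme, was at 2.87, 2.83 and 2.85 on the null arrays, at 3.98, 3.66 and 3.61 on the induced arrays and at 3.85, 3.95 and 3.15 on the floxed arrays. For both genes the null arrays were the lowest 3 and floxed array 3 the fourth lowest. Null minus induced was -0.94 for Iars (SE 0.23, limma adjusted p = 0.0728) and -0.90 for Mars (SE 0.20, limma adjusted p = 0.0574, the smallest of the family). Null minus floxed was -0.84 for Iars (SE 0.23, limma adjusted p = 0.0922) and -0.80 for Mars (SE 0.20, limma adjusted p = 0.0818). Without floxed array 3 null minus floxed was -1.15 for Iars and -1.05 for Mars (limma adjusted p = 0.000219 and 0.000969).

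Lars, the leucyl enzyme that also takes part in amino acid sensing, was at 4.33, 4.30 and 4.16 on the null arrays, at 5.12, 5.01 and 4.99 on the induced arrays and at 5.21, 5.29 and 4.21 on the floxed arrays. Floxed array 3 lay inside the range of the null arrays. Tars, the threonyl enzyme, was at 4.51, 4.39 and 4.46 on the null arrays, at 5.20, 5.09 and 5.10 on the induced arrays and at 5.30, 5.32 and 4.64 on the floxed arrays. The Tars groups did not overlap between null and either other group. Gars, the glycyl enzyme, was at 6.87, 7.07 and 6.92 on the null arrays, at 7.58, 7.36 and 7.42 on the induced arrays and at 7.64, 7.63 and 7.06 on the floxed arrays. For Gars null array 2 and floxed array 3 were nearly level, so these groups overlapped. Null minus induced was -0.78 for Lars, -0.68 for Tars and -0.50 for Gars (limma adjusted p = 0.119, 0.0809 and 0.121), and null minus floxed was -0.64, -0.63 and -0.49 in the same order (limma adjusted p = 0.178, 0.0929 and 0.133). Null minus floxed without floxed array 3 was -0.99 for Lars, -0.86 for Tars and -0.68 for Gars (limma adjusted p = 0.000415, 0.000475 and 0.00295).

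**Figure D2:**
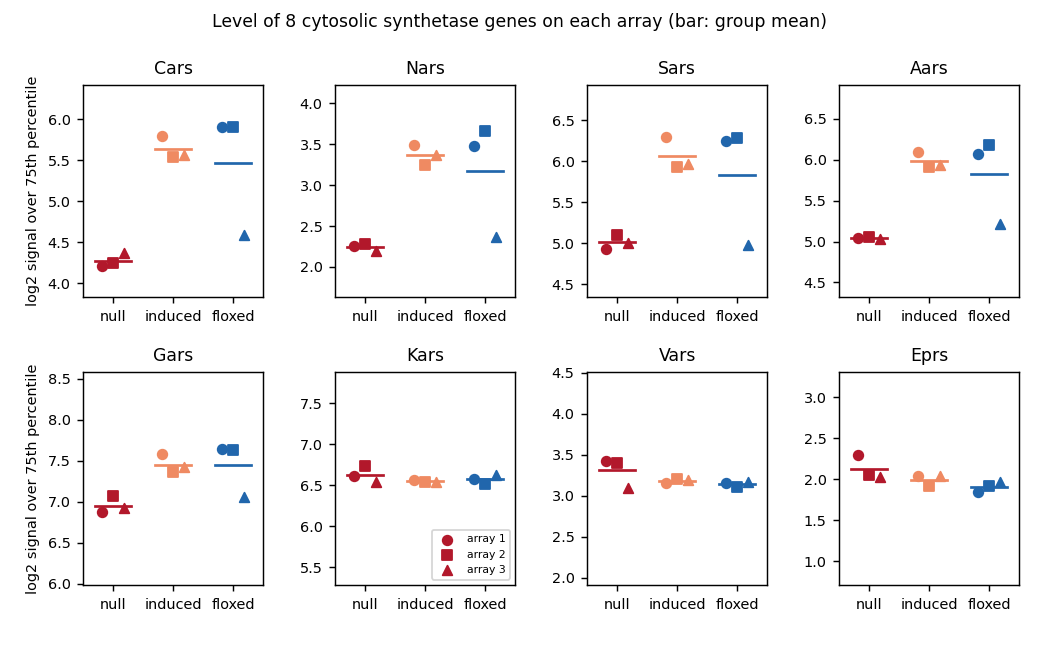
Log2 signal over the array's 75th percentile (y axis, the same span of 2.6 in each panel) of 8 cytosolic synthetase genes in null, induced and floxed cells; each symbol is an array, numbered 1 to 3 within its group, and each bar a group mean. In Cars, Nars, Sars, Aars and Gars floxed array 3 lay near the null arrays. Kars, Vars and Eprs were chosen for contrast after their values were seen and had smaller differences between the groups. For Eprs the null arrays lay wholly above the floxed arrays.

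The other 10 cytosolic genes had smaller differences in null minus induced, between -0.31 and 0.35. Dars, the aspartyl enzyme, was at -0.31 in null minus induced (SE 0.09, limma adjusted p = 0.108) and at -0.22 in null minus floxed (-0.27 without floxed array 3, limma adjusted p = 0.061). Farsb and Farsa encode the beta and alpha subunits of the same phenylalanyl enzyme and differed in sign. Farsb was at -0.18 and Farsa at 0.35 in null minus induced, with limma adjusted p = 0.377 and 0.193, and at -0.11 and 0.28 in null minus floxed. Qars (glutaminyl) was at -0.11 and -0.12, Wars (tryptophanyl) at 0.02 and -0.06, Hars (histidyl) at 0.10 and 0.16, and Vars (valyl) at 0.13 and 0.17 in null minus induced and null minus floxed. Eprs (glutamyl and prolyl in 1 protein) was at 0.13 and 0.22 and Rars (arginyl) at 0.19 and 0.10 in those comparisons. Kars, the lysyl enzyme, was at 0.08 in null minus induced, with a 95% interval from -0.12 to 0.28, against an interval from -2.07 to -0.66 for Cars.

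Both structural classes held genes that were low in null cells and genes that were not. Synthetases fall into classes I and II by the fold of their catalytic domain. In null minus induced the 9 class I genes had a median of -0.78 and the 10 class II genes a median of -0.40, and 6 of 9 and 7 of 10 lay below 0. Class I held Cars and Yars as well as Vars and Rars, and class II held Nars and Sars as well as Kars and Farsa.

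The multisynthetase complex, an assembly of cytosolic synthetases on the scaffold proteins Aimp1, Aimp2 and Eef1e1, was split. Of its 8 synthetases Iars, Lars and Mars had differences between -0.94 and -0.78 in null minus induced, Dars was at -0.31, and Eprs, Kars, Qars and Rars lay between -0.11 and 0.19. The scaffolds gave 0 of 3 passing genes in each comparison. Aimp1 was at -0.14, Aimp2 at 0.08 and Eef1e1 at -0.03 in null minus induced, and at -0.26, -0.12 and -0.03 in null minus floxed.

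The 13 cytosolic genes described as Atf4 targets had a median of -0.90 in null minus induced, and the 7 other cytosolic genes a median of 0.08. Eprs, Vars and Wars are among the 13 and lay above 0. The 10 genes below 0 are the 10 whose array values are given above. This list was drawn from general knowledge with results of these data known, so it is no independent support for a direction.

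Null cells were set against floxed cells to compare lasting loss of Xpc with its presence. Here the median was -0.35 for the cytosolic genes, -0.20 for the mitochondrial genes and 0.01 for all genes. With all 9 arrays 0 of 35 members passed in limma, where 1.85% of all genes did, and 11 cytosolic and 2 mitochondrial members had an unadjusted p under 0.05, as did 22.8% of all genes. The null arrays lay wholly below the floxed arrays for 8 cytosolic and 4 mitochondrial genes (11.4% of all genes) and wholly above for 1 cytosolic and 2 mitochondrial genes (12% of all genes). The 8 cytosolic genes include 6 of the 13 described as Atf4 targets.

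Here too the calls changed without floxed array 3. Without that array 18 members passed in limma: the 10 cytosolic genes from Cars to Gars fell, Farsa rose by 0.45, the mitochondrial genes Ears2, Hars2, Lars2, Pars2, Rars2 and Sars2 fell, and Yars2 rose by 0.37. In that fit 11.7% of all genes fell and 13.1% rose. On slide 2, which held the only null and floxed arrays scanned together, null array 3 minus floxed array 3 gave a median of -0.09 for cytosolic genes, with 17 of 20 below 0, and -0.05 for mitochondrial genes. Sars was at 0.03, Lars at -0.05 and Cars at -0.21 on that slide, against -1.05, -0.73 and -1.41 for null arrays 1 and 2 minus the induced arrays on slide 3. With slide as a block, 0 members passed in null minus floxed, where 0.206% of all genes fell and 0.0452% rose.

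Floxed array 3 minus the mean of floxed arrays 1 and 2 was of similar size to the null minus induced differences. It was -1.32 for Cars, -1.29 for Sars, -1.21 for Nars and -1.04 for Lars. Its median was -0.45 over the cytosolic genes, -0.91 over the 13 described as Atf4 targets, 0.08 over the other 7, -0.17 over the mitochondrial genes and 0.04 over all genes. The labels give that array the same genotype and treatment as the other floxed arrays. It also lay on another slide than those arrays, and the part of the slide in its values was not tested.

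**Figure D3:**
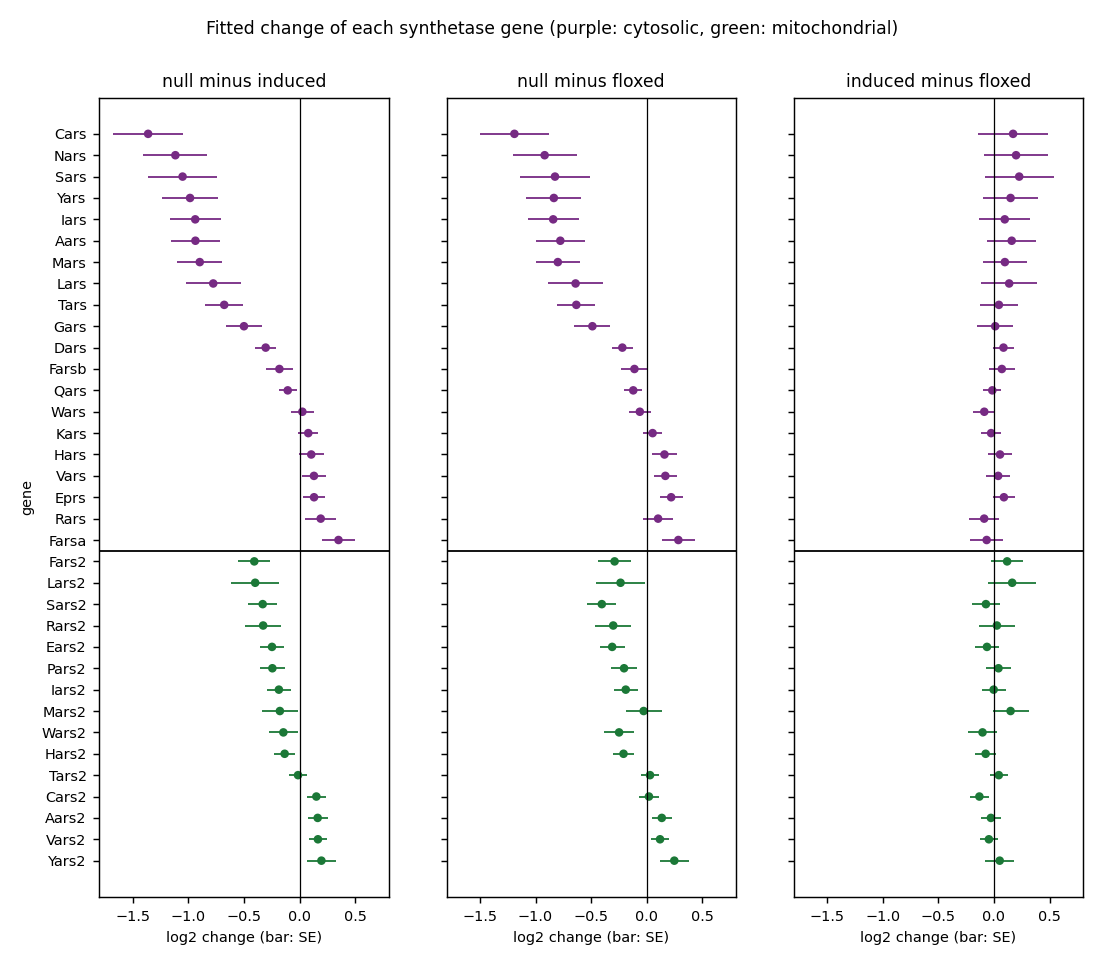
Fitted log2 change (x axis, points) with its SE (bars) of each of 35 synthetase genes (y axis) in null minus induced, null minus floxed and induced minus floxed, from the limma fit of all 9 arrays; purple marks cytosolic and green mitochondrial genes. Cars lay farthest to the left in both null comparisons, at -1.36 and -1.19, and all values of induced minus floxed lay between -0.13 and 0.23.

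Induced cells were set against floxed cells to ask what differed 4 days into the deletion. The cytosolic median was 0.08 and the mitochondrial median -0.0021, with single genes between -0.09 and 0.23 and between -0.13 and 0.16. By limma 0 of 35 members passed and 0 had an unadjusted p under 0.05, while 0.00502% of all genes passed and 5.91% had such a p. The extremes were Sars at 0.23 and Cars2 at -0.13. The induced arrays lay wholly below the floxed arrays for 0 cytosolic and 1 mitochondrial gene (6.26% of all genes) and wholly above for 0 members (6.63% of all genes). The sign of the cytosolic median rested on floxed array 3: without it the median was -0.12, and 0 members passed where 0.0603% of all genes fell and 0.668% rose. With slide as a block Cars alone passed, higher by 1.20 (SE 0.18, limma adjusted p = 0.0463), where 0.572% of all genes rose and 0.301% fell. That value joins floxed to induced arrays only through null arrays on different slides.

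The mitochondrial genes varied less than the cytosolic ones. Their differences lay between -0.41 and 0.20 in null minus induced and between -0.40 and 0.25 in null minus floxed. Sars2, the mitochondrial seryl enzyme, was at 1.76, 1.97 and 1.71 on the null arrays, at 2.24, 2.13 and 2.07 on the induced arrays and at 2.17, 2.45 and 2.03 on the floxed arrays. All null arrays were below all others, by a narrow margin at null array 2. Ears2, the mitochondrial glutamyl enzyme, was at 1.28, 1.11 and 1.14 on the null arrays, at 1.59, 1.27 and 1.42 on the induced arrays and at 1.57, 1.52 and 1.38 on the floxed arrays. Null and induced arrays overlapped for Ears2, and null and floxed arrays did not. Null minus floxed was -0.40 for Sars2 (SE 0.13, limma adjusted p = 0.123) and -0.31 for Ears2 (SE 0.11, limma adjusted p = 0.154). In the fit without floxed array 3 it was -0.50 for Sars2 and -0.37 for Ears2 (limma adjusted p = 0.0221 and 0.0498).

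Fars2, Lars2, Rars2, Pars2, Iars2 and Hars2 supply the phenylalanyl, leucyl, arginyl, prolyl, isoleucyl and histidyl enzymes of mitochondria. They lay between -0.41 and -0.14 in null minus induced and between -0.30 and -0.19 in null minus floxed. Lars2 stood out among them on floxed array 3, with -0.51 there and -0.50 on null array 3, both on slide 2, against -0.10 and -0.05 on null arrays 1 and 2. Mars2 and Wars2 were at -0.18 and -0.15 in null minus induced and at -0.03 and -0.25 in null minus floxed. Tars2, Cars2, Aars2, Vars2 and Yars2 lay between -0.01 and 0.20 in null minus induced and between 0.02 and 0.25 in null minus floxed.

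Of 12 measured pairs of a cytosolic and a mitochondrial gene named for the same amino acid, 5 had both genes below 0 in null minus induced, 1 had both above 0, and 6 differed in sign. Cars and Cars2 were at -1.36 and 0.15 in null minus induced, Aars and Aars2 at -0.94 and 0.16, and Yars and Yars2 at -0.99 and 0.20. Sars and Sars2 were at -1.05 and -0.33, and Lars and Lars2 at -0.78 and -0.40.

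Where a gene had several probes, the probes gave like differences for some genes and not for others. Of the 9 members with several probes, 8 had several that passed the filter. The 3 probes of Farsa gave 0.35, 0.28 and 0.24 in null minus induced, and the pair for Vars2 gave 0.16 and 0.18. The probes of Wars2 differed in sign, at -0.15 and 0.10, as did those of Wars (0.024 and -0.023) and Tars2 (-0.015 and 0.011). In null minus floxed the probes of Pars2 gave -0.20 and -0.05, those of Iars2 -0.19 and -0.05, and those of Farsa 0.28, 0.22 and 0.04. Each of the 10 cytosolic genes with the largest differences was represented by a single probe that passed, for example Cars at chr7:150743615-150743674 on the minus strand and Aars at chr8:113579376-113579434 on the plus strand (mm9 positions from the array design). Exons and introns were not analysed here. A second Aars probe did not pass the filter and was not used.

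Atf4 was at 5.36, 5.48 and 5.41 on the null arrays, at 7.07, 6.63 and 6.79 on the induced arrays and at 7.0, 7.11 and 6.08 on the floxed arrays. The null arrays were the lowest and floxed array 3 lay between them and the others. Atf4 fell by 1.41 in null against induced cells (SE 0.25, limma adjusted p = 0.0323) and by 1.31 in null against floxed cells (SE 0.25, limma adjusted p = 0.04). With floxed array 3 left out the differences were -1.41 and -1.64 (limma adjusted p = 0.000488 and 0.000234). No correlation over arrays is given, because the arrays form separate clusters.

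Of 24 measured genes in a list of Atf4 and its other targets, 5 fell and 0 rose in null against floxed cells (1.11% of all genes fell and 0.738% rose), and 7 fell and 0 rose in null against induced cells (1.54% and 0.658% of all genes). Stc2, a secreted glycoprotein, fell by 0.79 (limma adjusted p = 0.0308) and Vldlr, a lipoprotein receptor, fell by 2.22 (limma adjusted p = 0.0365) in null against floxed cells. Atf3, a stress-induced transcription factor, fell by 1.93 (limma adjusted p = 0.00758). Null minus floxed without floxed array 3 was -0.89 for Stc2, -2.76 for Vldlr and -2.10 for Atf3 (limma adjusted p = 0.00308, 0.000243 and 0.00112). In that fit 20 genes of the list fell and 0 rose in null minus floxed (11.7% and 13.1% of all genes). In null minus induced 19 fell and 1 rose (9.66% and 8.47% of all genes). The gene that rose was Slc7a3, at 0.33 (limma adjusted p = 0.0314). Atf3 and Vldlr were each above background on 1 of 3 null arrays. The median of the list was -0.95 in null minus floxed, -1.09 in null minus induced and 0.10 in induced minus floxed. The comparisons share the null or the floxed arrays, so their values are not independent.

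**Figure D4:**
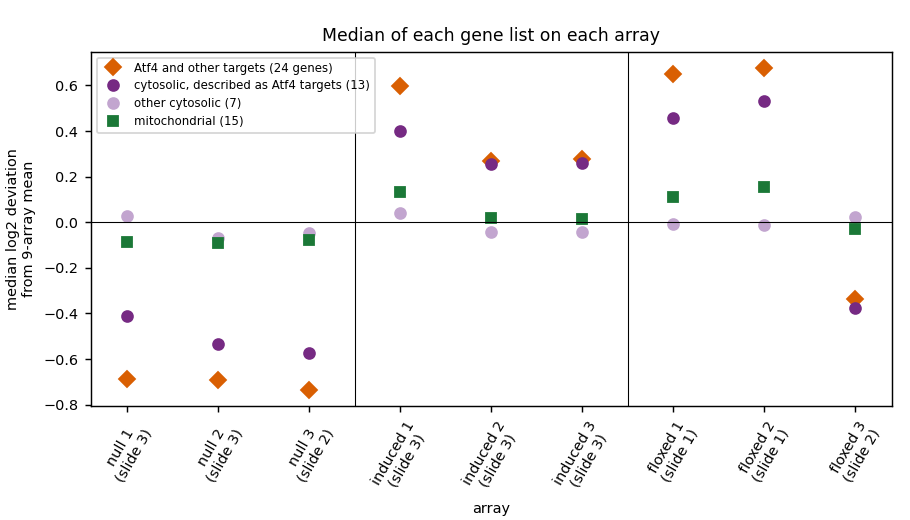
Median log2 deviation from the 9-array mean (y axis) of 4 gene lists on each array (x axis, with slide). The 13 cytosolic synthetase genes described as Atf4 targets were at -0.41, -0.53 and -0.58 on the null arrays, at 0.40, 0.26 and 0.26 on the induced arrays and at 0.46, 0.53 and -0.38 on the floxed arrays, on the same side of 0 as Atf4 and its other targets on every array.

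In other genes of tRNA charging and of translation control the calls also depended on floxed array 3. With all arrays none of 6 relatives and trans-editing proteins, of 4 partners of mitochondrial charging, of 9 mitochondrial translation factors or of 9 eIF2 kinases and regulators passed in limma in any comparison. Their medians in null minus induced were -0.04, 0.14, -0.00079 and -0.05 in that order. In that comparison 5 of the 9 eIF2 genes had an unadjusted p under 0.05, as did 23.8% of all genes. The null arrays lay wholly below the induced arrays for 4 of the 9 (18.3% of all genes) and wholly above for 1 (19% of all genes). When floxed array 3 was left out, Eif2ak4, Impact, Ppp1r15b and Gatb fell, Eif2ak1 and Tufm rose, and no other gene of these 4 lists passed in null minus induced or in null minus floxed. Of all genes, 9.66% fell and 8.47% rose in null minus induced in that fit, and 11.7% and 13.1% in null minus floxed. Qrsl1, Gatb and Gatc form the amidotransferase that makes mitochondrial glutaminyl-tRNA in place of a glutaminyl synthetase. Gatb was at 0.66, 0.66 and 0.65 on the null arrays, at 1.03, 1.01 and 0.92 on the induced arrays and at 1.08, 0.99 and 0.61 on the floxed arrays, so here too floxed array 3 lay with the null arrays. Eif2ak4, the kinase that senses uncharged tRNA, was at 1.32, 1.35 and 1.25 on the null arrays, at 1.71, 1.80 and 1.72 on the induced arrays and at 1.59, 1.60 and 1.18 on the floxed arrays. Both genes were named after their values were seen.

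Markers of other cell types moved with the null group as well. The summed level of 5 measured trophectoderm markers of 6 was 4.48 to 4.72 on the null arrays, 5.59 to 6.11 on the induced arrays and 6.07 to 6.48 on the floxed arrays (log2), with Cdx2 above background on no null array and Hand1 on 1 of 3. In null against floxed cells 4 of these 5 fell with all arrays, namely Krt8, Krt18, Cdx2 and Hand1. So did 4 of 6 fibroblast markers (Col1a1, Col1a2, Col3a1 and Twist2), while Nes and Neurod1 of the 4 neuroectoderm markers rose. In that fit 1.11% of all genes fell and 0.738% rose. The fibroblast marker Thy1 was at 1.37 and the neuroectoderm marker Pax6 at -0.36 in null minus floxed, opposite to those of their lists that passed (limma adjusted p = 0.104 and 0.178). With floxed array 3 left out, Thy1 and the trophectoderm marker Eomes rose by 1.92 and 0.87 (limma adjusted p = 0.000142 and 0.00391), and all 3 blood markers rose. Of these blood markers, Tal1 and Hbb-bh1 were each above background on 1 of 3 floxed arrays. On floxed arrays 1, 2 and 3 Tal1 was at -3.39, -3.25 and -1.57 and Hbb-bh1 at -3.13, -3.00 and -2.54. The summed level of 6 of 7 fibroblast markers was 1.60 to 1.90, 1.60 to 1.67 and 1.79 to 2.09 in the same order of groups. Col3a1 and Twist2 were above background on no null array. Thy1, at 1.26, 1.58 and 1.35 on the null arrays, weighs most in the sum there, so the sum hides the fall of the other markers. The summed level of 4 neuroectoderm markers was 2.21 to 2.41 on the null arrays, 1.45 to 1.59 on the induced arrays and 1.76 to 1.88 on the floxed arrays. That of 3 of 4 blood markers was 0.23 to 0.27 on the null arrays, -0.54 to -0.50 on the induced arrays and -1.06 to 0.17 on the floxed arrays. The 8 ES cell markers summed to 9.37 to 9.59 on the null arrays, 9.50 to 9.82 on the induced arrays and 9.61 to 9.78 on the floxed arrays. Dppa5a, the brightest of the 8, had group means of 8.86, 8.83 and 8.95 in that order and weighs most in the sum. With all arrays 0 of the 8 passed in each comparison. Without floxed array 3, Sox2, Nanog, Klf4, Esrrb and Zfp42 fell in null minus floxed, by between -0.78 and -0.32. In that fit 0 of the 8 rose, where 11.7% of all genes fell and 13.1% rose. In RNA of whole cultures, fewer cells of a type and less RNA per cell cannot be told apart, and the part of these markers in the synthetase values was not tested.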

How the data were processed

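The deposited array files give linear intensity for every spot. The scanner software was Agilent Feature Extraction 10.7.3.1, per the submitters' processing notes. The processed signal in them is background-subtracted and not scaled between arrays, per the file headers. In the deposited series matrix 100% of values matched, within 0.6%, the mean spot intensity of the same array, and 0 of its columns were unmatched to a sample. Of 62976 spots per array, 59305 were not controls and stood for 55681 probes. Control and outlier spots were left out, spots of a probe averaged, and values set to log2 minus log2 of the array's 75th percentile, which lay between 345.69 and 470.6. Probes had to be well above background in every array of some group, which 27536 were, and a gene was represented by its brightest probe. Probes were named through RefSeq accessions (27235) or kept the name in the files (28446).

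Groups came from the labels. The 3 comparisons were made in 1 fit of 3 group means with limma 3.58.1 in R 4.3.3 (two-sided moderated tests, Benjamini-Hochberg over 19913 genes, threshold 0.05). The fit was also run on simulated arrays with independent noise and no slide effect or deviating array. That run could not check how slide or floxed array 3 affects the calls. The choice of members, of lists and of the genes to name was made with earlier results of these data known. Array values are given by rule for the 12 members with the largest change in null minus floxed and for Atf4 and Xpc. Passing genes of other lists are given by name, some with their changes. Some or all array values of Lars2, Gatb, Eif2ak4, Tal1 and Hbb-bh1 are given outside that rule. Lists are described by counts and medians and were not tested. Alternatives were other background correction, scaling, probe filters, probe summary, slide or replicate number as a block, array weights, an intensity trend, and leaving out each array. Fits of null and induced arrays alone and of slide 3 alone were added after the data were seen.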

Additional observations from a re-analysis of the deposited data

How the results depend on the processing

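The direction of the cytosolic median was kept in null minus floxed and in null minus induced under every alternative run, and the number of members past the threshold was not kept. In null minus floxed, members passing were 0 in the fit of all arrays, 3 with normexp background correction, 4 with the series matrix values, 5 with an intensity trend, 21 with array quality weights, and 0 to 18 when each array was left out, the 18 without floxed array 3. The shares of all genes passing were 1.85%, 2.86%, 2.34%, 4.3%, 30.2% and 0.397% to 24.8% in the same order. In null minus induced the members passing were 0 in the fit of all arrays, 2 among genes above background on all 9 arrays, 6 with normexp, 6 with the series matrix values, 7 with the trend, 10 with slide as a random block, 10 with null and induced arrays alone, 10 with slide 3 alone, 11 with slide as a block, 12 with weights, and 0 to 14 when each array was left out, the 14 without floxed array 3. The shares of all genes passing were 2.2%, 2.5%, 2.76%, 2.26%, 4.13%, 9.1%, 14%, 12.4%, 16.3%, 20.8% and 0.306% to 18.1% in the same order. In induced minus floxed 1 member passed with slide as a block, where 0.874% of all genes did, and 0 otherwise. Weights gave floxed array 3 a weight of 0.1578.

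The cytosolic median of null minus floxed was -0.088 with slide as a block, against -0.35 with all arrays, and lay between -0.47 and -0.29 when each array was left out. The mitochondrial median of null minus floxed was -0.13 with the mean of all probes, -0.052 with slide as a block and -0.13 with slide as a random block, and lay between -0.28 (without floxed array 3) and -0.13 (without floxed array 2) when each array was left out. The cytosolic median of induced minus floxed was 0.31 with slide as a block and changed sign with array weights (-0.15), and lay between -0.12 (without floxed array 3) and 0.13 when each array was left out. The mitochondrial median of null minus induced lay between -0.23 (without null array 1) and -0.14. Other causes of these shifts were not tested.

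Replicate numbers did not pair the arrays, with same-number correlations of deviations between -0.1058 and 0.0873. With the replicate block 0 members passed in each comparison, and 166, 188 and 1 genes passed in null minus floxed, null minus induced and induced minus floxed, against 368, 438 and 1 without it. In null minus floxed, genes passing numbered 76 with no filter on dim probes, 50 with slide as a block, 103 with slide as a random block, 570 with normexp, 857 with the trend, 6006 with weights and 79 to 4943 when each array was left out. In null minus induced they numbered 63, 3249 and 1812 under the first 3 of these settings, 822 with the trend, 4135 with weights, 2780 with null and induced arrays alone, 2465 with slide 3 alone and 61 to 3610 when each array was left out. In induced minus floxed they numbered 174 with slide as a block, 1120 with weights and 0 to 145 when each array was left out. None of the scalings moved the share of higher calls by over 10 percentage points.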
